A study of Rattus norvegicus with 8 samples.

Results

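The adult limb-type myosin heavy chain genes Myh1, Myh2, Myh4 and Myh7 were followed in rat extraocular muscle, the muscle that moves the eye. Their probe sets were taken as all those to which the platform annotation gives 1 of these 4 symbols and no other symbol. These were 9 of 31042 probe sets on the array: 5 for Myh1, 1 for Myh2, 1 for Myh4 and 2 for Myh7. All 9 lay in the upper 60% of probe sets by mean signal and were tested. Another 3 probe sets were annotated to a member together with Myh6, Myh8 or a further member, and were not counted as members. The hyperthyroid group was 4 adult Sprague-Dawley rats given T3 (triiodothyronine, the active thyroid hormone) at 25 µg per 100 g of body weight, injected into the peritoneum every 2 days for 6 weeks and killed 24 hours after the last dose. The control group was 4 untreated rats of the same strain, also adult. All rats weighed 200 ± 40 g at the outset, and the labels speak of no injection in controls. Both groups carried no genetic change that the labels name. Total RNA of each rat was hybridised to 1 Affymetrix array, and arrays are named by group and the number in their title. Where the text gives no unit, a signal is a scaled intensity on a linear scale, which orders arrays within a probe set but does not order genes.

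Myosin heavy chain is the motor of the thick filament, and the isoform a fibre makes largely sets how fast it shortens. In rodent limb muscle Myh4 marks the fastest fibres (type IIB), Myh1 type IIX, Myh2 type IIA and Myh7 the slow type I fibres. Myh7 is also the slow myosin of the heart, and its gene neighbours Myh6, the fast cardiac myosin. In limb muscle thyroid hormone is known to shift fibres from slow to fast myosins and to lower Myh7, and extraocular muscle is known for making adult, developmental and tissue-specific myosins side by side.

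Myh2, Myh1 and Myh4 follow each other on rat chromosome 10 in RefSeq's GRCr8 annotation, in a row that runs Myh3, Myh2, Myh1, Myh4, Myh8, Myh13. A non-coding gene, LOC102555216, lies between Myh1 and Myh4. The 250 bases before the annotated start of each of these 3 genes, from RefSeq on GRCr8, are shown so that these neighbouring fast myosin genes can be compared letter by letter. They lie on the plus strand at chr10:52355489-52355738 for Myh2, chr10:52384662-52384911 for Myh1 and chr10:52421898-52422147 for Myh4, and they are written 5′ to 3′. Capitals mark a run of 20 bases that all 3 share and the TATA box TATAAAA.
Myh2: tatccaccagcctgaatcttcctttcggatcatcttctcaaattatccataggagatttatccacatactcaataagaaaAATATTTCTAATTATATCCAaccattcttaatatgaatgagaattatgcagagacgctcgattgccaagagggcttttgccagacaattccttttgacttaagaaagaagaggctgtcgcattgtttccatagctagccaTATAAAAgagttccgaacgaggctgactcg
Myh1: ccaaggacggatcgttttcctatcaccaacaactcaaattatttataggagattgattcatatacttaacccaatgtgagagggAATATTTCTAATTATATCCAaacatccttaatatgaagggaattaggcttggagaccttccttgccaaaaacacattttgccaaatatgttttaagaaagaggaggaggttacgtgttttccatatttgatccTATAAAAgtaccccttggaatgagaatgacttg
Myh4: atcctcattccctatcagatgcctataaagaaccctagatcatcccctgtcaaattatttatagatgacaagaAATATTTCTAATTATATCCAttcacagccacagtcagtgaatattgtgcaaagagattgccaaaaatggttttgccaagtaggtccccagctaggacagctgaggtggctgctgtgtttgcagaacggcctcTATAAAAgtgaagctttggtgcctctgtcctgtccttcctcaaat

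The shared run, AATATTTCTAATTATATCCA, began 170 bases before the start of Myh2, 166 before that of Myh1 and 177 before that of Myh4. Searched on both strands, it was in 5 of 33469 rat windows of this length (0.0149%), those of the 3 myosins and 2 of the non-coding gene between Myh1 and Myh4. The TATA box lay 30, 33 and 45 bases before the start of Myh2, Myh1 and Myh4, and TATAAAA on either strand was in 5.38% of all windows. The hexamer AGGTCA, the core of many thyroid hormone receptor sites, had 0 matches in these 3 windows on either strand and was in 14.1% of all windows. The E box CANNTG, bound by MyoD-type factors, had 2 matches before Myh4 and 0 before Myh2 or Myh1, against 65.5% of windows with at least 1. None of these matches overlapped another (0 pairs). With gaps counted, 67.8% of aligned bases were identical between Myh2 and Myh1, 55.3% between Myh2 and Myh4 and 53.8% between Myh1 and Myh4. The window listed for Myh7, on chromosome 15, starts inside the span of that gene and is not shown.

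The array labelled hyperthyroid 5 stands apart from the other 7, so the members are given with and without it. Myh13, the extraocular myosin, had a signal of 4.17 on it and 5430 to 9340 on the others. Hoxa9 and Hoxa10, homeobox genes of trunk and limb position, were at 345 and 399 on it and at most 36.3 and 27.8 elsewhere. Summed over the 4 extraocular markers measured (Myh3, Myh6, Myh8 and Myh13), the signal was 259 to 36543 on hyperthyroid arrays, with hyperthyroid 5 lowest, and 21051 to 31434 on controls. The labelled tissue, extraocular muscle, was thus not borne out on hyperthyroid 5 by its own markers, and every value on 8 arrays counts that array as labelled. Summed markers of oligodendrocytes and nerve ran from 85.1 to 12200 in hyperthyroid rats and from 6848 to 15385 in controls. Those of epithelium and gland ran from 18.0 to 326 in hyperthyroid rats and from 280 to 789 in controls, and hyperthyroid 5 was lowest in both. Hyperthyroid 2 was also low, with a nerve sum of 1058 and an epithelial sum of 161, both below every control, and with the lowest adipocyte sum of the 8 arrays. Hyperthyroid 3 had an epithelial sum of 109, also below every control, and a nerve sum of 10028, within the control range. Of these lists, 4 of 4 nerve and 3 of 3 epithelial genes tested had a lower hyperthyroid mean, as on the 7 arrays without hyperthyroid 5. Of all 10446 genes, 5102 were lower on 8 arrays and 5020 on 7. At an unadjusted p under 0.05 in limma, explained below, 2 nerve genes were lower on 8 arrays and 0 on 7. For epithelial genes it was 1 in each fit, and for all genes 609 on 8 arrays and 857 on 7. In either fit 0 of the list genes were called, beside 0% of all genes on 8 arrays and 0.124% on 7. Adipocyte markers summed to 129 to 2023 in hyperthyroid and 344 to 869 in control arrays, and leukocyte markers to 594 to 2333 in hyperthyroid and 750 to 1399 in control arrays, both highest on hyperthyroid 5. Endothelial markers summed to 636 to 862 in hyperthyroid and 489 to 574 in control arrays, smooth muscle markers to 987 to 2213 in hyperthyroid and 1039 to 1944 in control arrays, and cardiac markers to 87.7 to 415 in hyperthyroid and 221 to 326 in control arrays. The ratio of the 3′ to the 5′ Gapdh probe set, which is higher in shorter RNA, was 3.91, 4.40, 2.18 and 1.44 in hyperthyroid rats 1, 2, 3 and 5 and 1.67 to 1.97 on controls. The part that any of these play in the myosin values was not tested, except where a value without an array or with the ratio as a covariate is given. Without hyperthyroid 5 the ratio was above every control on each hyperthyroid array. A fit with it as a covariate on those 7 arrays can hardly tell ratio and group apart. In whole muscle, fewer fibres of a type and less RNA per fibre cannot be told apart.

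None of the 4 adult myosins passed the test between hyperthyroid and control muscle. At an adjusted p under 0.05 in limma (a linear model fitted to log2 signals of all probe sets), 0 of 9 member probe sets were called on 8 arrays, where 0% of all 18625 tested probe sets were called. At an unadjusted p under 0.05 it was also 0 of 9, beside 11.5% of all. The groups overlapped for all 9, beside 7.55% of all probe sets with no overlap. Without hyperthyroid 5 the counts were again 0 of 9 adjusted (0.156% of all), 0 of 9 unadjusted (15.2% of all) and 0 of 9 with no overlap (14.8% of all).

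**Figure D1:**
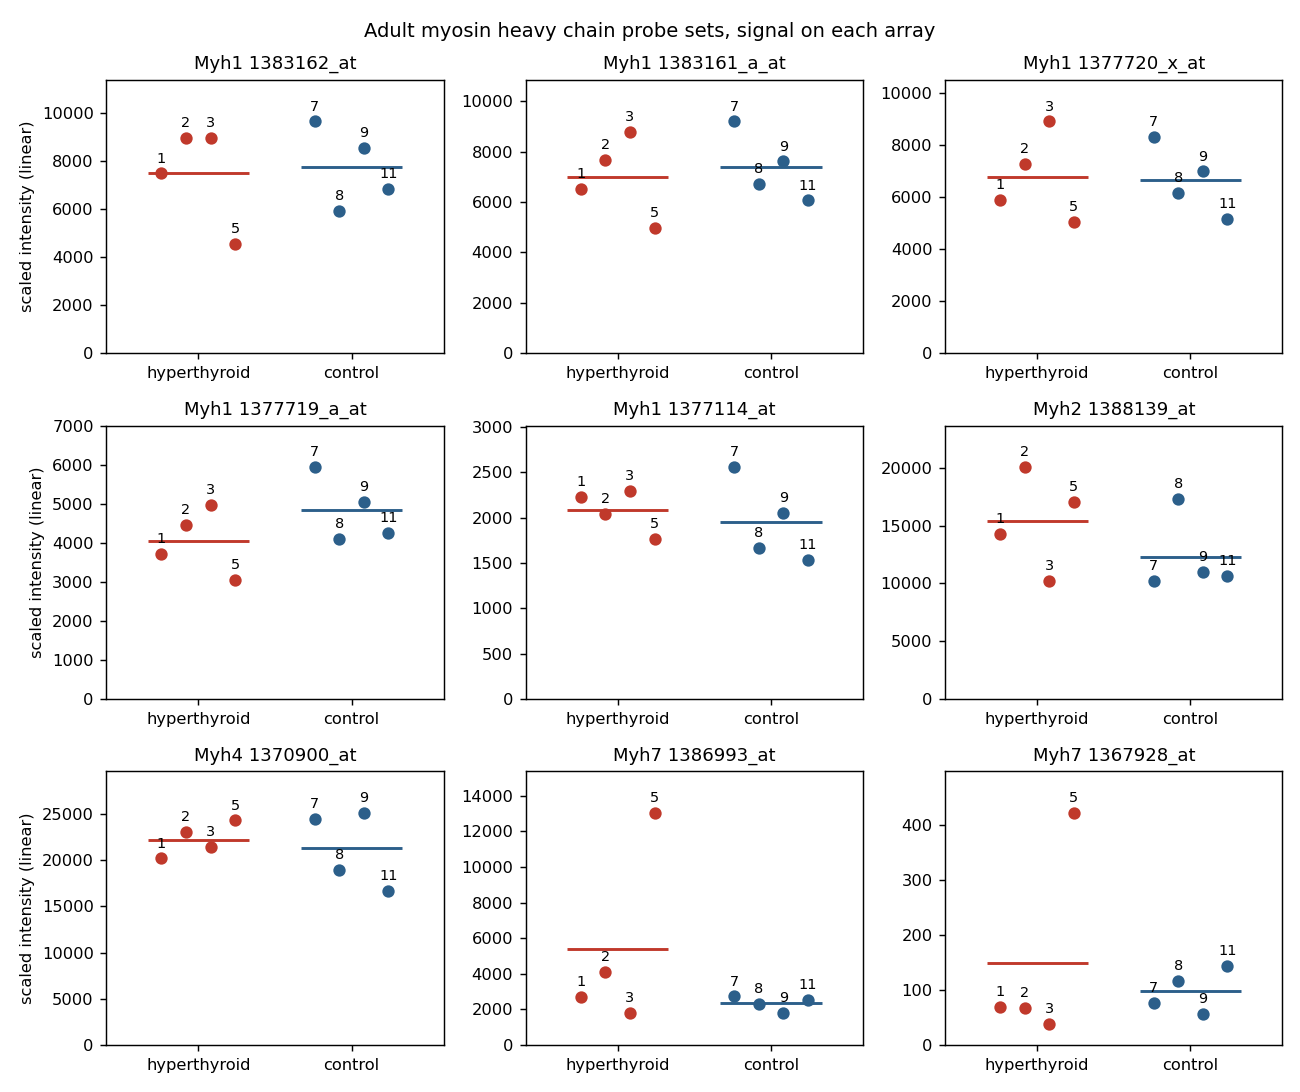
Signal of each member probe set on each array, as scaled intensity on a linear axis from 0. Points are single rats labelled by array number, hyperthyroid on the left and control on the right, and bars are group means of 4 arrays. Hyperthyroid 5 stands at 13031 in the brighter Myh7 panel, where no other array is above 4097, and is lowest in 4 of the 5 Myh1 panels.

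Myh4, the type IIB myosin, was the member with the smallest spread among hyperthyroid rats. Its probe set (1370900_at) had signals of 20185, 23031, 21414 and 24307 in hyperthyroid rats 1, 2, 3 and 5 and 24436, 18987, 25104 and 16681 in control rats 7, 8, 9 and 11. All 4 hyperthyroid values lay inside the control range, and hyperthyroid 5 lay among them. Signals averaged 22234 ± 1807 in the hyperthyroid rats and 21302 ± 4123 in the control rats (SD, n = 4 per group). The log2 difference, hyperthyroid minus control, was 0.08 ± 0.16 (SE, limma adjusted p = 0.867), or a fold of 1.06 with a 95% interval of 0.83 to 1.345. Without hyperthyroid 5 it was 0.04 ± 0.15 (limma adjusted p = 0.936), a fold of 1.02 with an interval of 0.816 to 1.29. On 8 arrays the sign turned when control 11, the dimmest, was left out (-0.031). On the log2 scale the SD over rats was 0.12 in hyperthyroid and 0.29 in control muscle, a difference in spread that was not tested. Only 20 of the 31042 probe sets were brighter on average, and whether so bright a signal was compressed was not tested.

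Myh2, the type IIA myosin of fast oxidative fibres, had a higher mean in hyperthyroid muscle, within the spread of the rats. Its probe set (1388139_at) stood at 14251, 20042, 10218 and 17071 in hyperthyroid rats 1, 2, 3 and 5 and at 10226, 17318, 11014 and 10683 in control rats 7, 8, 9 and 11. Hyperthyroid 1, 2 and 5 were above 3 of the controls, control 8 was above all hyperthyroid arrays but number 2, and hyperthyroid 3 was the lowest of the 8. Signals averaged 15396 ± 4184 in the hyperthyroid rats and 12310 ± 3354 in the control rats (SD, n = 4 per group). The log2 difference was 0.31 ± 0.23 (SE, limma adjusted p = 0.602), a fold of 1.24 with a 95% interval of 0.881 to 1.755. Without hyperthyroid 5 it was 0.25 ± 0.23 (limma adjusted p = 0.626). Single rats moved it: on 8 arrays it was 0.17 without hyperthyroid 2, 0.50 without hyperthyroid 3 and 0.49 without control 8 (limma adjusted p = 0.79, 0.447 and 0.527), and on the 7 arrays 0.0063 without hyperthyroid 2 and 0.49 without hyperthyroid 3. Adding the Gapdh ratio as a covariate gave 0.24 on 8 arrays (limma adjusted p = 0.732). Without hyperthyroid 5 it gave -0.39, in a fit where, as said above, ratio and group can hardly be told apart.

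Myh1, the type IIX myosin, was read by 5 probe sets that did not share a direction on 8 arrays. The brightest (1383162_at) had signals of 7475, 8943, 8946 and 4536 in hyperthyroid rats 1, 2, 3 and 5 and 9638, 5929, 8551 and 6833 in control rats 7, 8, 9 and 11. Hyperthyroid 5 was the lowest of the 8 and control 7 the highest, with the rest interleaved. It averaged 7475 ± 2078 in the hyperthyroid rats and 7738 ± 1670 in the control rats (SD, n = 4 per group), and the log2 difference was -0.07 ± 0.23 (SE, limma adjusted p = 0.917), a fold of 0.949 with a 95% interval of 0.67 to 1.345. Without hyperthyroid 5 the hyperthyroid mean was 8455 ± 849 (SD, n = 3) and the log2 difference turned to 0.15 ± 0.16 (limma adjusted p = 0.693).

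The other 4 Myh1 probe sets give the same picture of overlap. The probe set 1383161_a_at ran from 4960 to 8774 in hyperthyroid and from 6063 to 9192 in control arrays, with a log2 difference of -0.10 ± 0.19, and 0.06 ± 0.15 without hyperthyroid 5. The probe set 1377720_x_at, whose suffix marks probes that may also bind other transcripts, ran from 5035 to 8895 in hyperthyroid and from 5151 to 8299 in control rats, with a difference of 0.02 ± 0.20, and 0.15 ± 0.17 without hyperthyroid 5. The probe set 1377719_a_at had the lowest p of the 5, with 3055 to 4974 in hyperthyroid and 4117 to 5947 in control arrays, a log2 difference of -0.27 ± 0.18 and an unadjusted p of 0.158 in limma. Without hyperthyroid 5 its difference was -0.14 ± 0.15. The dimmest, 1377114_at, ran from 1768 to 2297 in hyperthyroid and from 1539 to 2556 in control arrays, with a difference of 0.11 ± 0.17, and 0.19 ± 0.16 without hyperthyroid 5. On 4 of the 5, hyperthyroid 5 was the lowest array, and on 1377114_at controls 11 and 8 were lower. Over the 8 arrays the 5 probe sets correlated with each other at a Pearson r of 0.575 to 0.958 on log2 signals. The lowest of these was between 1377114_at and 1377719_a_at, which also differed in the sign of the difference.

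Myh7, the slow myosin, had the largest mean difference of the members, and hyperthyroid 5 set its size. The brighter probe set (1386993_at) stood at 2703, 4097, 1797 and 13031 in hyperthyroid rats 1, 2, 3 and 5 and at 2728, 2308, 1795 and 2546 in control rats 7, 8, 9 and 11. Hyperthyroid 5 and 2 were above every control, while hyperthyroid 1 and 3 lay within the control range. Signals averaged 5407 ± 5170 in the hyperthyroid rats and 2344 ± 404 in the control rats (SD, n = 4 per group). The log2 difference was 0.79 ± 0.47 (SE, limma adjusted p = 0.536), a fold of 1.73 with a 95% interval of 0.849 to 3.54. Without hyperthyroid 5 the hyperthyroid mean was 2865 ± 1159 (SD, n = 3) and the difference 0.23 ± 0.23 (limma adjusted p = 0.673), a fold of 1.17 with an interval of 0.822 to 1.66. When hyperthyroid 2, whose low nerve and adipocyte sums are given above, was left out as well it was -0.072. Adding the Gapdh ratio as a covariate gave 1.30 on 8 arrays (unadjusted p = 0.021 in limma, adjusted p = 0.277) and -0.70 without hyperthyroid 5 (unadjusted p = 0.0353, adjusted p = 0.986). In the last fit every hyperthyroid ratio was above every control ratio, so ratio and group can hardly be told apart there.

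The dimmer Myh7 probe set (1367928_at) did not follow the brighter one outside hyperthyroid 5. It had signals of 68.8, 66.9, 37.9 and 422 in hyperthyroid rats 1, 2, 3 and 5 and 76.1, 117, 56.6 and 144 in control rats 7, 8, 9 and 11. Hyperthyroid 5 was again the highest, but hyperthyroid 2, high on the brighter probe set, was below controls 7, 8 and 11 here. The log2 difference was 0.00 ± 0.63 on 8 arrays (SE, limma adjusted p = 0.999). Without hyperthyroid 5 it was -0.73 ± 0.39 (limma adjusted p = 0.4), where 3 hyperthyroid rats averaged 57.9 ± 17.3 and 4 control rats 98.6 ± 39.6 (SD). The 2 probe sets correlated at a Pearson r of 0.827 over 8 arrays and 0.307 over the 7 without hyperthyroid 5. Their log2 differences without that array had opposite signs, and 10891 probe sets were brighter than the dimmer one.

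**Figure D2:**
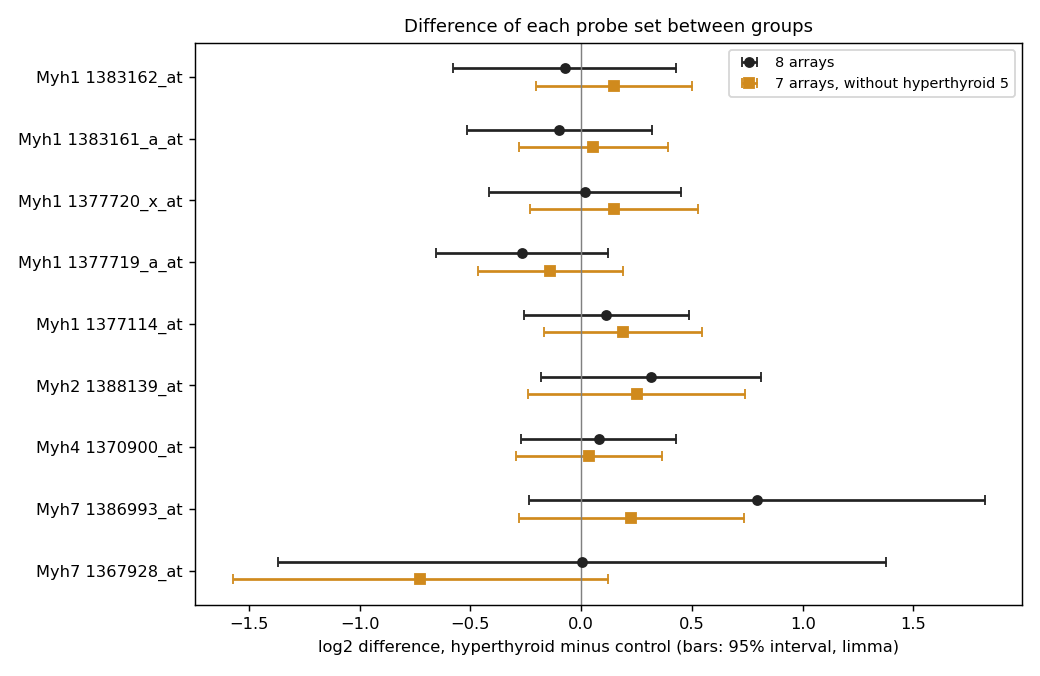
Log2 difference of each member probe set, hyperthyroid minus control, from limma on 8 arrays (black circles) and on the 7 arrays without hyperthyroid 5 (orange squares), with 95% intervals as bars. Every interval spans 0, and the 2 Myh7 probe sets have the widest intervals on 8 arrays (-0.24 to 1.82 and -1.37 to 1.38).

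The members were also set against each other within each array, which cancels the brightness of the probes and the scaling of the array. Of the 6 ratios between the brightest probe sets of 2 members, 0 differed between groups by a two-sided exact permutation test, which cannot go below p = 0.0286 with 4 rats against 4. The log2 ratio of Myh7 over Myh4, slow over fastest, was 0.28, 0.69, -0.40 and 2.28 in hyperthyroid rats 1, 2, 3 and 5 and 0.02, 0.14, -0.63 and 0.47 in control rats 7, 8, 9 and 11, each relative to the control mean. The groups overlapped, with hyperthyroid 5 and 2 above all controls. The difference was 0.71 (exact permutation p = 0.314, adjusted over the 6 ratios 0.651), and 0.19 without hyperthyroid 5. For Myh2 over Myh1 the values were 0.27, 0.50, -0.47 and 1.25 in hyperthyroid rats 1, 2, 3 and 5 and -0.575, 0.89, -0.30 and -0.02 in control rats 7, 8, 9 and 11. This ratio spanned 1.72 log2 units among hyperthyroid and 1.46 among control arrays, against a difference between group means of 0.39 (exact permutation p = 0.429, adjusted 0.651), or 0.10 without hyperthyroid 5. For Myh4 over Myh1 the controls spanned 0.39 log2 units. The difference was 0.15 with hyperthyroid 5 (exact permutation p = 0.83) and -0.11 without it. With 3 rats against 4 the permutation test cannot go below p = 0.0571, above the threshold, so no ratio could pass without hyperthyroid 5. The remaining ratios differed by 0.87 for Myh7 over Myh1, 0.48 for Myh7 over Myh2 and -0.24 for Myh4 over Myh2 (exact permutation p = 0.457, 0.543 and 0.457), and by 0.08, -0.02 and -0.22 without hyperthyroid 5.

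**Figure D3:**
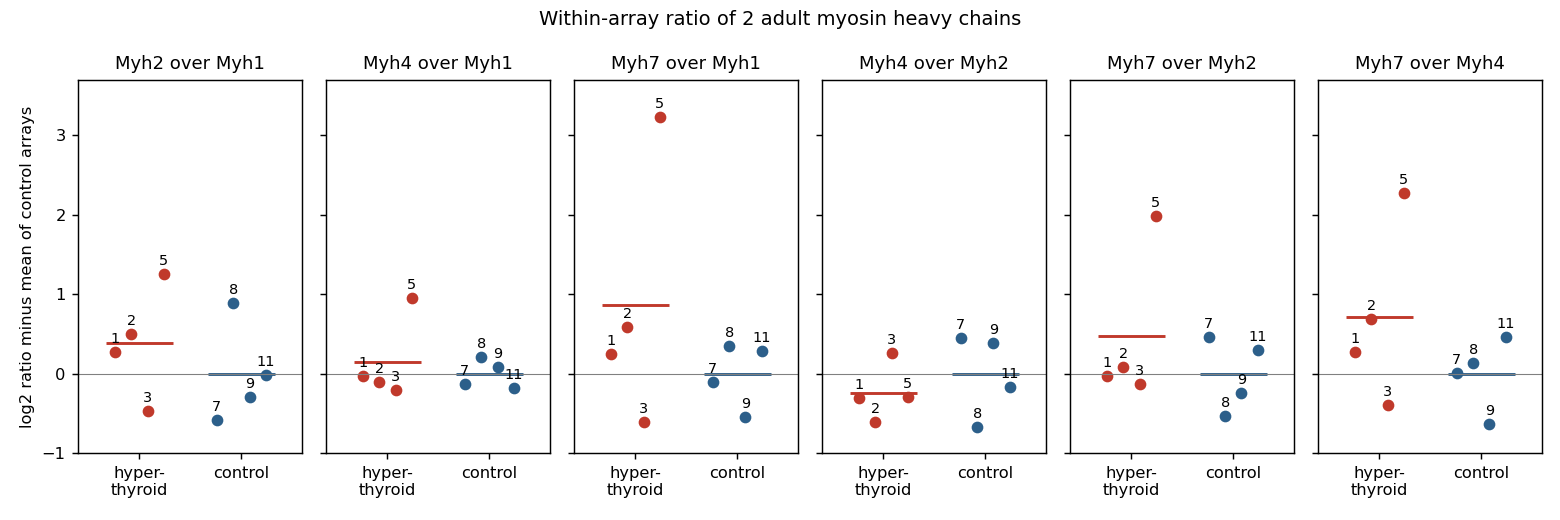
Within-array log2 ratio of the brightest probe sets of 2 members, relative to the mean of the control arrays, for the 6 pairs. Points are single rats labelled by array number, hyperthyroid on the left and control on the right, and bars are group means. The ratio of Myh7 over Myh1 on hyperthyroid 5 is the highest point at 3.24, and the groups overlap in every panel.

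Across the rats, no 2 of the 4 genes passed a test of varying together. Of 6 pairwise correlations of log2 signal over the 8 arrays, none passed after adjustment (smallest adjusted p = 0.304, exact permutation test, two-sided). Myh2 and Myh1 had a Pearson r of -0.47 (exact permutation p = 0.243, adjusted 0.487) and a Spearman rho of -0.52 (p = 0.197, adjusted 0.654, exact). Leaving out the 2 arrays farthest from the median of Myh2, hyperthyroid 2 and control 8, gave r = -0.85, and leaving out hyperthyroid 5 gave r = -0.33 (exact permutation p = 0.447). Myh7 and Myh1 had r = -0.68 (exact permutation p = 0.07, adjusted 0.304) and rho = -0.17 (p = 0.703, adjusted 0.84, exact), and r = -0.24 without hyperthyroid 2 and 5. Without hyperthyroid 5 alone r was 0.09, so the relation rests on that array. Myh7 and Myh2 had r = 0.575 and rho = 0.43 (exact permutation p = 0.101 and 0.299, adjusted 0.304 and 0.654), with r = 0.24 without hyperthyroid 2 and 5 and r = 0.65 without hyperthyroid 5 alone (exact permutation p = 0.125 for the last). Myh4 and Myh1 had r = 0.22 and rho = 0.405 on 8 arrays (exact permutation p = 0.605 and 0.327, adjusted 0.726 and 0.654), -0.11 without controls 8 and 11, and r = 0.80 over the 7 arrays without hyperthyroid 5 (exact permutation p = 0.031, adjusted 0.186). Myh4 had r = 0.06 and rho = -0.095 with Myh2 (exact permutation p = 0.897 and 0.84), and r = 0.30 and rho = 0.095 with Myh7 (exact permutation p = 0.49 and 0.84). Without hyperthyroid 5 these r values were -0.07 and -0.02, and without the 2 farthest arrays -0.07 and -0.36.

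For each member, the 3 genes with the most similar pattern were those with the highest Pearson r over the 8 arrays among 10442 named genes. For Myh7 they were Myoz2 (r = 0.984), which encodes a Z-disc protein of slow fibres, Myl3 (0.98), the slow essential myosin light chain, and Tnnc1 (0.978), the slow troponin C. Over the 7 arrays without hyperthyroid 5 these r values were 0.90, 0.872 and 0.903. Myl3, for example, had signals of 866, 1421, 636 and 9380 in hyperthyroid rats 1, 2, 3 and 5 and 823, 1078, 512 and 981 in control rats 7, 8, 9 and 11. Hyperthyroid 5 and then 2 were highest, as for Myh7, and control 9 lowest. For the fast members the closest genes were not sarcomeric ones. For Myh2 they were Thoc6 (0.955), Pradc1 (0.948) and Clk1 (0.946), and for Myh4 they were Zcrb1 (0.944), Tmem64 (0.934) and Selenok (0.931). For Myh1 they were Adcy2 (0.946), Ccdc127 (0.946) and Scgb1c1 (0.942), which over 7 arrays stood at 0.86, 0.865 and 0.873. With 8 points and 10442 genes, values this high are given as a description only.

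**Figure D4:**
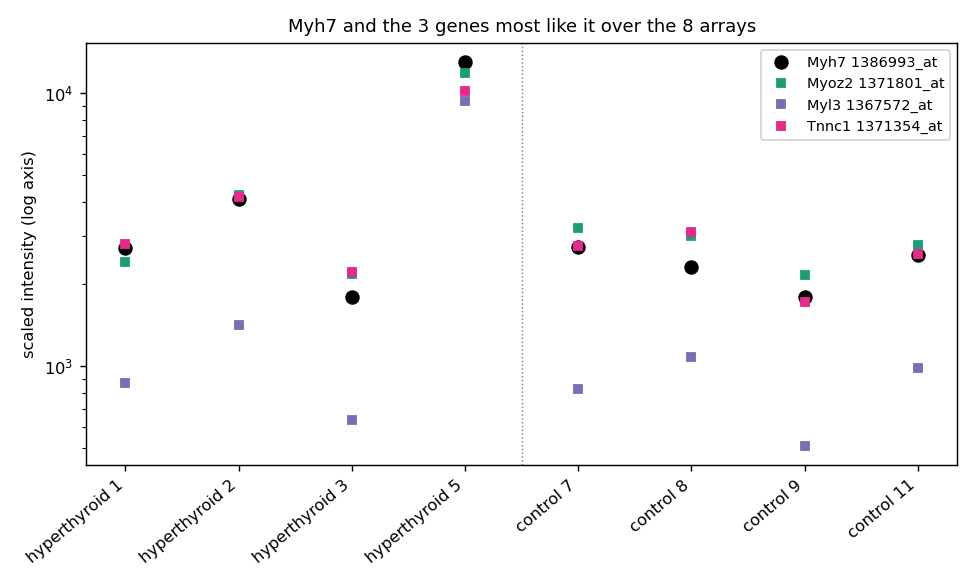
Scaled intensity, on a log axis, of the brighter Myh7 probe set (black circles) and of Myoz2, Myl3 and Tnnc1 (coloured squares) on each array, hyperthyroid left of the dotted line and control right of it. All 4 genes are highest on hyperthyroid 5, where Myh7 is at 13031 and Myl3 at 9380.

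The other sarcomeric myosins were far lower on hyperthyroid 5 than on the other 7 arrays. Myh3, the embryonic myosin, stood at 8054, 15954, 8802 and 165 in hyperthyroid rats 1, 2, 3 and 5 and at 6412 to 9840 on controls. Myh8, the perinatal myosin, stood at 8678, 10822, 7599 and 54.2 on hyperthyroid and 8885 to 12343 on control arrays. Myh6, the fast cardiac myosin, stood at 378, 427, 237 and 35.4 in the hyperthyroid rats and at 151 to 348 in controls. Hyperthyroid 5 was the lowest of the 8 arrays for these 3 genes and for Myh13, and also for Myh1 on 4 of its 5 probe sets. Myh4 and Myh2 on it lay within the range of the other 7, and Myh7 above it. The difference was not tested, since it concerns 1 array. Without hyperthyroid 5, the log2 differences were 0.41 ± 0.23 for Myh3, 0.67 ± 0.28 for Myh6, -0.18 ± 0.15 for Myh8 and 0.04 ± 0.19 for Myh13 (SE), and none passed (limma adjusted p = 0.427, 0.288, 0.602 and 0.936). Of the 6 genes listed, Myh7b and Myh15 were not analysed here.

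**Figure D5:**
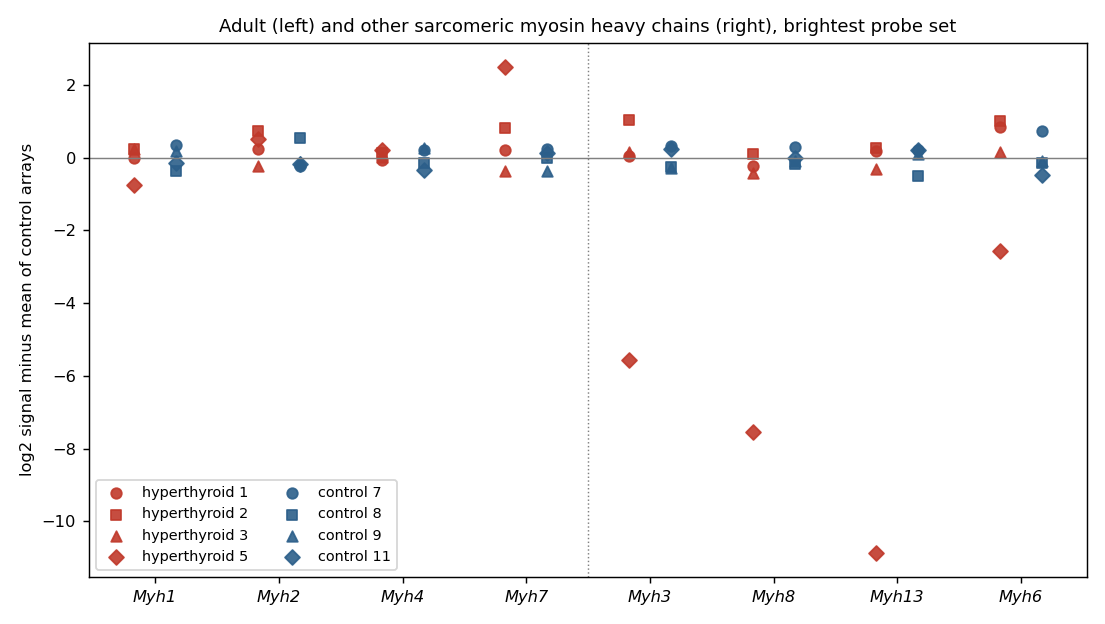
Log2 signal minus the mean of the 4 control arrays for the brightest probe set of each adult myosin (left of the dotted line) and of 4 other sarcomeric myosins (right), hyperthyroid arrays in red and control arrays in blue, 1 symbol per rat. Hyperthyroid 5 lies at 2.49 for Myh7, 0.21 for Myh4 and -0.74 for Myh1, and far below all other arrays for Myh3, Myh8, Myh13 and Myh6.

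The partner proteins of fast and slow myosin were counted from lists of known members, with 1 probe set per gene. Over all 10446 genes, 5344 had a higher and 5102 a lower mean in hyperthyroid arrays, the median log2 difference was 0.01, 0% were called and 12.2% had an unadjusted p under 0.05 in limma. Of 17 fast fibre proteins tested, 3 were higher and 14 lower, with a median of -0.06, and 0 were called or had an unadjusted p under 0.05. Among them Atp2a1, the fast calcium pump, stood at -0.26 ± 0.13 and Pvalb, the calcium buffer parvalbumin, at -0.36 ± 0.19 (log2 ± SE, limma adjusted p = 0.482 for each), and at -0.25 ± 0.12 and -0.41 ± 0.18 without hyperthyroid 5. Without hyperthyroid 5 the fast list had 2 higher and 15 lower (median -0.27), with 5 lower at an unadjusted p under 0.05, where 8.2% of all genes were lower at that level, and the median of all genes was 0.02. That list median was -0.075 with quantile normalization and -0.07 when hyperthyroid 1 was left out too. Of 17 slow fibre proteins, 12 were higher and 5 lower on 8 arrays (median 0.27), and 9 higher and 8 lower without hyperthyroid 5 (median 0.03), with 0 called in either fit, against 0.124% of all genes called without hyperthyroid 5. Tpm3, counted as a slow tropomyosin, stood at 0.59 ± 0.17 (limma adjusted p = 0.277), and at 0.61 ± 0.17 without hyperthyroid 5 (adjusted p = 0.142). Its signals were 2059 to 2579 in hyperthyroid and 1322 to 2114 in control arrays. Unlike Myh7 and Myl3, it had no peak on hyperthyroid 5, where it was at 2187, within the range of the other hyperthyroid arrays. Whether its signal comes from slow fibres was not tested. Pln, which restrains the slow calcium pump, stood at -1.33 ± 0.45, with 161 to 950 in hyperthyroid and 1105 to 1638 in control arrays and no overlap (limma adjusted p = 0.332), and at -0.76 ± 0.17 without hyperthyroid 5 (adjusted p = 0.0949). Beside these counts stand the other-tissue signals of hyperthyroid 5 and the Gapdh ratios given above, whose part was not tested.

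Genes that fold myosin, build the thick filament or set fibre type were counted in the same way. Of 12 thick filament and myosin folding genes, 7 were higher and 5 lower (median 0.02), with 0 called, and 5 higher and 7 lower without hyperthyroid 5. Hsp90ab1, a cytosolic HSP90 chaperone, had signals of 2957, 3065, 2530 and 2874 in hyperthyroid rats 1, 2, 3 and 5 and 3906, 4228, 4018 and 4662 in control rats 7, 8, 9 and 11. The groups did not overlap, hyperthyroid 5 included, and the log2 difference was -0.56 ± 0.12 (SE, limma adjusted p = 0.214, and 0.0788 without hyperthyroid 5). Smyd2, a lysine methyltransferase, stood at 1.26 ± 0.58 (adjusted p = 0.436), with 1154 on hyperthyroid 5 and at most 205 elsewhere, and at 0.59 ± 0.34 without that array. Of 29 fibre type regulators, 22 were higher and 7 lower (median 0.10), with 0 called. At an unadjusted p under 0.05, 3 were higher and 0 lower, where 6.34% of all genes were higher at that level. Without hyperthyroid 5, 18 were higher and 11 lower, with 1 higher and 2 lower at that level. Of all 10446 genes, 817 were higher and 857 lower at that level without hyperthyroid 5. Tead4, a transcription factor active in muscle differentiation, stood at 1.73 ± 0.515, with signals of 71.4 to 195 in hyperthyroid and 16.7 to 83.7 in control arrays (limma adjusted p = 0.288), and at 1.44 ± 0.55 without hyperthyroid 5. Its size rests on dim signals, since controls 7, 9 and 11 were at 16.7, 30.5 and 24.6, near the filter level of about 28.2. Thrb, a thyroid hormone receptor, stood at 0.49 ± 0.19 (adjusted p = 0.371), and at 0.41 ± 0.19 without hyperthyroid 5.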

How the data were processed

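Signals of 8 arrays, 1 per rat, were analysed from the series' value table. The intensity values were deposited by the authors on a linear scale. GCOS, Affymetrix's array software, is named without a version in the submitters' processing notes. Each array has a trimmed mean intensity of about 150 (2% trimmed at each end), so the arrays had been scaled to each other, which makes every difference relative to that mean. Detection calls and further filters are not given in the sources used here. Control probe sets (57 of 31099) were left out, values under 1 were set to 1 (1663 of 248336), and log2 was taken with no further normalization. The 18625 brightest probe sets (60%, with a mean signal above about 28.2) were fitted with limma 3.58.1 in R 4.3.3 (lmFit, eBayes with a mean-variance trend), Benjamini-Hochberg adjustment over all of them and a threshold of 0.05. Ratios and correlations used exact permutation tests over arrays (scipy 1.17.1) with adjustment over 6 pairs. A gene is its probe set of highest mean signal. The models were checked on simulated arrays. With 4 arrays a group, precision is limited, and p-values measure the spread between rats.

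The platform annotation gave 1 symbol to 20826 probe sets, several to 436 and none to 9780. The members and lists were chosen with earlier results of these data known. By rule the text names all member probe sets, the other sarcomeric myosins, the 3 genes most like each member, and genes that describe hyperthyroid 5. It also names the 2 genes of lowest p in the fast fibre, slow fibre, thick filament and fibre type regulator lists. The probe sets shared by Myh7 and Myh6 were named after their values were seen. The nerve, epithelial, adipocyte, endothelial, smooth muscle, leukocyte and cardiac lists are given without the names of their genes. Alternatives were quantile normalization, median centring, other filters, floors, a pseudocount of 32, other variance models, array weights, the Gapdh ratio as a covariate and leaving out arrays. Myosin genes are similar in sequence, and cross-binding between them cannot be checked from these values.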

Additional observations from a re-analysis of the deposited data

Results flagged for a closer look

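Within the 4 control arrays, control 8 lay far from the other 3 on the Myh2 probe set, at 17318 against 10226 to 11014, with a gap of 0.859 of the whole range on the log2 scale. It was 1 of 18 member groups tested this way, and 6.52% of all 18625 probe sets had such a gap among the controls. Chance alone gives about 5% of groups. Control 8 also had the lowest Myh1 signal among the controls on 1383162_at and 1377719_a_at, while control 11 was lower on the other 3 Myh1 probe sets.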

How the results depend on the processing

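No member probe set passed the threshold in any setting run on 8 or on 7 arrays. Of 351 alternative values for member differences, 314 kept the sign and the call and 37 turned the sign without a call, and of 72 for the ratios, 2 turned the sign. The count over all probe sets, 0 on 8 arrays, was 6 with array weights, 8 with the Gapdh covariate, 3 without hyperthyroid 1 and 2, the arrays of highest Gapdh ratio, and 0 to 29 when each array was left out in turn (29 without hyperthyroid 5). On the 7 arrays without hyperthyroid 5 it was 29 (10 higher, 19 lower), 53 with median centring (9 higher, 44 lower), 36 with quantile normalization (21 higher, 15 lower), 71 with no filter, 85 with the upper 40%, 78 with 32 added, 0 without a trend, 1 with the Gapdh covariate, 2 without hyperthyroid 1 and 2 (which leaves hyperthyroid 3 alone, assumed to vary like the controls), 0 without hyperthyroid 1 and control 11, which differ from the other arrays in Xist and Eif2s3y, and 0 to 144 when a further array was left out (0 without hyperthyroid 1, control 8 or control 11, 144 without hyperthyroid 3). On 8 arrays, Myh1 was at 0.014 (1383162_at, quantile normalization), 0.068 and 0.034 (1383162_at and 1383161_a_at, array weights), -0.029, -0.097 and -0.044 (1377720_x_at with median centring, the Gapdh covariate, and without hyperthyroid 1 and control 11) and -0.027 (1377114_at, without hyperthyroid 1 and control 11). The dim Myh7 probe set 1367928_at was at -0.12 with quantile normalization, -0.041 with median centring and -0.46 with array weights. Leaving out each array in turn gave -0.19 to 0.15 for 1383162_at, -0.22 to 0.055 for 1383161_a_at, -0.13 to 0.15 for 1377720_x_at, -0.031 to 0.17 for Myh4 and -0.73 to 0.43 for 1367928_at, and for the ratios -0.11 to 0.27 (Myh4 over Myh1) and -0.024 to 0.68 (Myh7 over Myh2). On the 7 arrays, median centring gave -0.0075 for 1383161_a_at and -0.028 for Myh4, the Gapdh covariate -0.39 for Myh2, -0.10 for Myh4 and -0.70 for Myh7 (1386993_at), leaving out hyperthyroid 1 and 2 gave the values of hyperthyroid 3 alone against the control mean, 0.053 for Myh1 (1377719_a_at), -0.23 for Myh2 and -0.37 for Myh7 (1386993_at), and leaving out hyperthyroid 1 and control 11 gave -0.030 for Myh4. Leaving out a further array gave -0.049 to 0.17 for 1383161_a_at, -0.075 to 0.12 for Myh4 and -0.072 to 0.52 for Myh7 (1386993_at). The causes were not tested, except that settings with fewer arrays have less data by construction. Of 247 alternative values for list medians, 28 moved by more than the spread of the controls, and on the 7 arrays the slow fibre median ran from -0.14 to 0.20 and the thick filament median from -0.28 to 0.057 when a further array was left out. No paired analysis was possible because the groups share no replicate number. Xist, a transcript of female cells, was at 367 on hyperthyroid 1 and 351 on control 11 and at most 44.5 elsewhere. Eif2s3y, a gene of the Y chromosome, was at 6.32 and 16.2 on these arrays and at least 533 elsewhere. Sex was not a term in any fit.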

Other observations

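Vgll2 and Myom2, named after their values were seen, had their highest signal on hyperthyroid 5, as did both Myh7 probe sets. This was not particular to them. Other genes of the slow and the fast fibre lists, such as Tnni1 and Actn3, were also highest there, and others, such as Pln and Tnnc2, were not. Vgll2, a TEAD cofactor that promotes slow fibres in mice, had signals of 90.5, 82.9, 112 and 312 in hyperthyroid rats 1, 2, 3 and 5 and 207, 171, 220 and 158 in control rats 7, 8, 9 and 11. Hyperthyroid 1, 2 and 3 were below every control and hyperthyroid 5 above them. Its log2 difference was -0.56 ± 0.37 on 8 arrays (SE, limma adjusted p = 0.573) and -0.99 ± 0.22 without hyperthyroid 5 (limma adjusted p = 0.0929). Myom2, an M-band protein of fast fibres, had signals of 269, 439, 302 and 4727 on the same hyperthyroid arrays and 758, 627, 847 and 335 on the controls, with a log2 difference of 0.08 ± 0.75 on 8 arrays and -0.88 ± 0.29 without hyperthyroid 5 (limma adjusted p = 0.976 and 0.189). The Gapdh ratio was also above every control on hyperthyroid 1, 2 and 3, and its part in these values was not tested.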
